A study of Mus musculus with 6 samples.

Results

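The genes described here are 10 genes that are used to recognise blood stem and progenitor cells in mouse bone marrow, Slamf1, Flt3, Kit, Ly6a, Cd34, Procr, Hlf, Mecom, Meis1 and Hoxa9. They were chosen by name, and all 10 of 10 were found among the 43346 genes of the deposited count table. RNA-seq libraries were made from femurs of C57BL/6 mice aged 4 months, collected 21 days after a single X-ray dose of 24 Gy, given at 6.6 Gy per minute to a 5 mm region of the distal metaphysis of the right femur. The radiated group holds 3 libraries of the right femur, and the non-radiated group holds 3 libraries of the left femur of radiated mice. All 6 libraries therefore come from animals that received the dose in 1 leg, and femurs of animals without radiation were not analysed here. The RNA was taken from homogenized bone after muscle was removed, so each library mixes bone, marrow, vessel and any remaining muscle RNA. The labels do not say whether a library is 1 mouse or a pool, so the p-values measure the spread between these samples only, which may be technical.

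Blood stem cells divide rarely, renew themselves and give rise to multipotent progenitors, which then commit to the myeloid, lymphoid, erythroid or megakaryocyte lines. In the marrow they sit near vessels and stromal cells that supply stem cell factor, the ligand of Kit, and CXCL12. No gene of the 10 belongs to stem cells alone. Kit is also made by mast cells, Flt3 by dendritic cells, Slamf1 by lymphocytes and megakaryocytes, Meis1 by megakaryocytes, and Cd34, Procr and Ly6a by endothelium. In bulk tissue, fewer cells of a type and less RNA per cell cannot be told apart.

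Library totals ran from 34034251 to 48708383 counts, and 1 count was worth 0.0187 to 0.0399 CPM. CPM gives a count relative to the size of its library, here scaled by the trimmed mean of M values (TMM). A single transcript, AY036118, took 32.9% of the counts of non-radiated library 2 and 0.321% to 5.61% in the other 5, so that library stands apart and results are given with and without it where it matters. Radiated library 2 held far more skeletal muscle RNA than the rest, with a summed level of 2230 CPM over 10 muscle genes, against 714 and 188 in the other radiated libraries and 164 to 320 in the non-radiated ones. Osteoblast genes, which mark the labelled tissue, summed to 452 to 776 CPM, and 6 genes of all white blood cells to 1672 to 1873 CPM.

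Of the 10 genes, 4 passed the test between radiated and non-radiated femurs (edgeR's quasi-likelihood test, adjusted p under 0.05 over 18757 genes), and all 4 were lower in the radiated femurs. Slamf1 fell 2.36-fold, Meis1 1.70-fold, Flt3 1.57-fold and Kit 1.32-fold. Over all genes tested, 7.80% were called, 3.24% as lower and 4.56% as higher. The median log2 fold change was -0.36 over the 10 genes and 0.0023 over all genes tested. The 3 radiated and the 3 non-radiated libraries did not overlap for 7 of the 10, with 6 lower (the 4 called genes, Cd34 and Hlf) and Procr higher, whereas 25.9% of all genes tested did not overlap. The summed level of the 10 genes was 177 to 181 CPM in the non-radiated and 125 to 138 CPM in the radiated libraries. Each of the 4 calls also held without any single library, non-radiated library 2 included. With library totals alone as the scale, which moved the median of all genes by 0.19 on the log2 scale, only Slamf1 of these 4 stayed past the threshold (edgeR adjusted p of 0.405 for Flt3, 0.733 for Kit and 0.165 for Meis1), and the share of all calls that were higher went from 58.5% to 85.4%. On that scale, of the lower calls of other genes named below, those of Itga2b, Vwf, Mmrn1, Angpt1 and Clec9a held and the rest were lost, as was the higher call of Ly9. Slamf1, Flt3, Kit and Meis1 were all called once the transcripts AY036118 and Gm26917 were left out of the library totals. The adjusted p by edgeR was then 0.00215 for Flt3, 0.00533 for Kit and 0.00333 for Meis1, and 66.9% of all calls were higher.

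**Figure D1:**
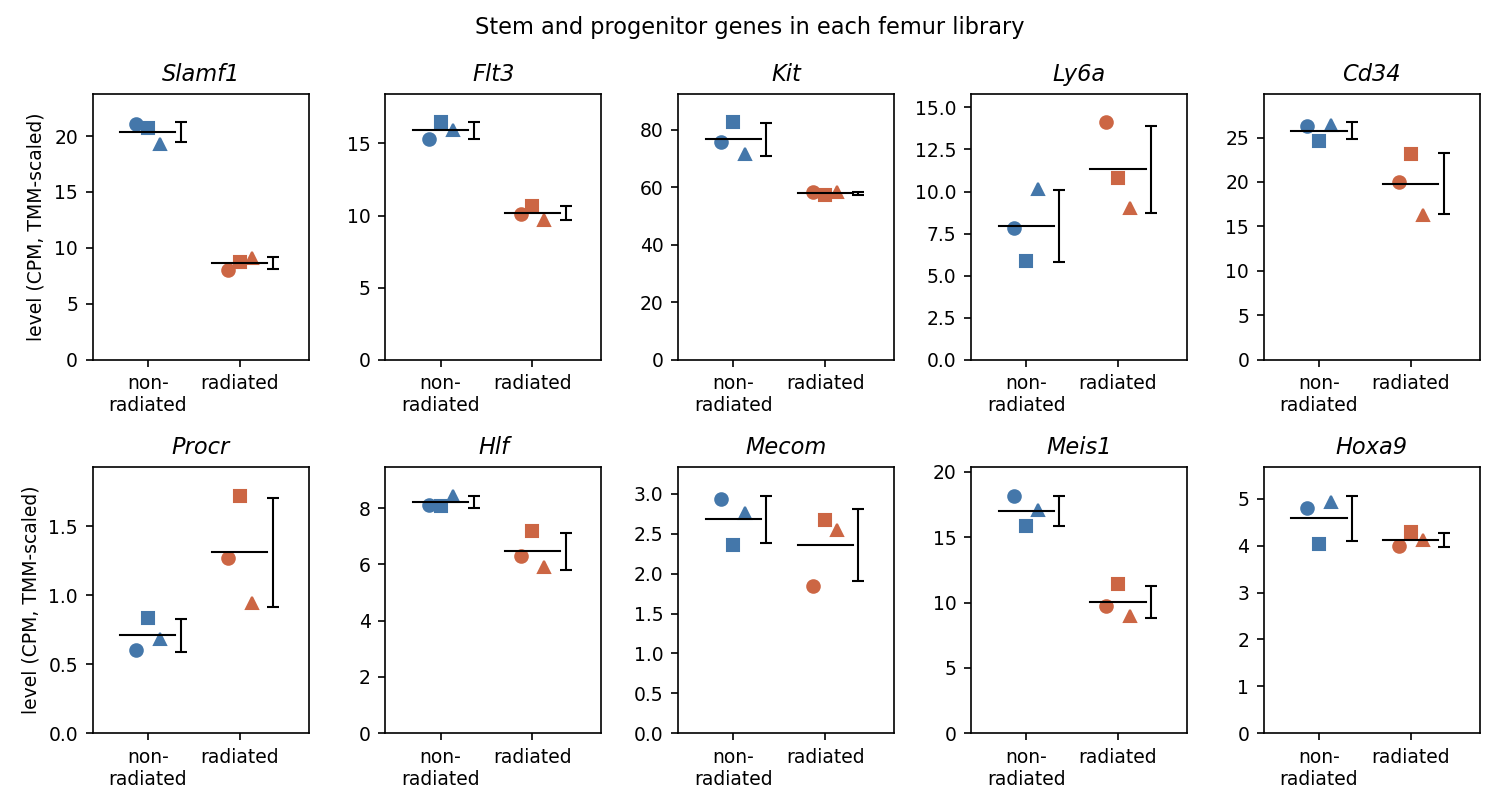
Level of each of the 10 genes in every library, as TMM-scaled CPM on axes that start at 0. Points are libraries, with the marker shape giving the replicate number, lines are group means and bars are the SD over 3 libraries. The groups are apart for Slamf1, Flt3, Kit, Meis1, Cd34, Hlf and, with the radiated libraries above, Procr.

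The sequence before the start of the 4 called genes is shown because these genes moved in the same direction in the same libraries. The lines give genomic sequence (RefSeq, build GRCm38.p6) read 5′ to 3′ on the strand of the gene, from within the 250 bases before the RefSeq start. Each line stops before the first annotated coding or untranslated part of a coding gene, and exons of noncoding transcripts were not checked. They lie at chr1:171766882-171767126 (plus strand) for Slamf1, chr5:147400490-147400739 (minus strand) for Flt3, chr5:75574737-75574915 (plus strand) for Kit and chr11:19018986-19019219 (minus strand) for Meis1. Capitals mark matches to the motifs searched.
Slamf1: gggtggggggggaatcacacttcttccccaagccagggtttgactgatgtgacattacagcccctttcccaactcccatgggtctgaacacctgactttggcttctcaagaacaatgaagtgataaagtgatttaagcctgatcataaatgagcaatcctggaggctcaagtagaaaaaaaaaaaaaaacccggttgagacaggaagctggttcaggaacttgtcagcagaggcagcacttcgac
Flt3: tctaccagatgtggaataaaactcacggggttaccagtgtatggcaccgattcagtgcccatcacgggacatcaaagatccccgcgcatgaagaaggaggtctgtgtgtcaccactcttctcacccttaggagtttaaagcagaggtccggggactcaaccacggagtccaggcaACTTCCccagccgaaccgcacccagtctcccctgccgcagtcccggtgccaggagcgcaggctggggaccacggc
Kit: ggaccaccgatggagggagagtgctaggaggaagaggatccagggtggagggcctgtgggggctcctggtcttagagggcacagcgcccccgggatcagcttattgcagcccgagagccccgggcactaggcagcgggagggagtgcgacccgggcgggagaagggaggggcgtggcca
Meis1: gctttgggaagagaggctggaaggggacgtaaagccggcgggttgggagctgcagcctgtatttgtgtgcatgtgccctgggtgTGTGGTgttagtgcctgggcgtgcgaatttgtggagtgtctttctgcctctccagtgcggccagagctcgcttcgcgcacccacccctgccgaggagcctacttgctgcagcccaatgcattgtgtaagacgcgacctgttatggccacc

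Short motifs of factors known from blood stem cells were searched on both strands of those 250 bases in the 9 genes with a promoter entry. The letters TGTGGT, for RUNX factors, were found in 1 of 9, Meis1, and in 14% of 32851 promoters. The letters GGAAGT, for ETS factors, were found in 2 of 9, Flt3 and Meis1 (the match of Meis1 lies in a stretch not printed), and in 19.7% of all promoters. Neither the GATA letters AGATAA nor the MEIS letters TGACAG were found in these 9, against 9.99% and 15.9% of all promoters. No motif is contained in another. No motif searched was found in all 4 of the printed genes, and their GC content ran from 47.2% in Slamf1 to 70.8% in Kit, against a median of 52.4% over all promoters. A match is a run of letters and no evidence of binding.

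Slamf1 encodes CD150, a self-binding surface receptor of the SLAM family that is used to separate stem cells from later progenitors. It lies on chromosome 1 from 171767127 to 171801184 (ENSMUSG00000015316), with gene coordinates as the deposited table gives them, on mm10 per the submitters' processing notes. The non-radiated libraries had 21.0, 20.7 and 19.3 CPM, and the radiated libraries had 8.06, 8.69 and 9.12 CPM. Every radiated library was below 10 CPM and every non-radiated one above 19, so the groups were far apart. The means were 20.3 ± 0.903 and 8.62 ± 0.535 CPM (SD, n = 3 each), and the log2 fold change was -1.24 (SE 0.09, adjusted p = 4.74e-05 by edgeR). It ranked 52 of 18757 genes by p and was the only one of the 10 genes called under all 16 alternative settings.

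Slamf1 belongs to a family of receptors whose other members mostly did not move with it. Of 8 family members tested besides it, 4 rose and 1 fell, and the list's median log2 fold change was 0.49. Slamf7, a receptor of natural killer, B and plasma cells, rose from 34.5 ± 1.31 to 63.4 ± 7.83 CPM (log2 fold change 0.88, adjusted p = 0.000505 by edgeR). Slamf6, a receptor of lymphocytes, rose by 0.76 on the log2 scale (adjusted p = 0.00283 by edgeR), and Ly9 by 0.39 (adjusted p = 0.00607 by edgeR). Cd84 fell by 0.23 on the log2 scale (adjusted p = 0.0382 by edgeR), a call that held in 1 of the 6 fits that leave out a library, the one without non-radiated library 3. Cd48, which stem cells lack and most other blood cells carry, differed by 0.15 on the log2 scale (adjusted p = 0.416 by edgeR), with overlapping groups. For every 100 counts of Slamf7 there were 56.4 to 62.2 counts of Slamf1 in non-radiated and 12.6 to 14.96 in radiated libraries. Ratios of counts within a library are given here as a description, with no test.

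The genes of megakaryocytes, the marrow cells that shed platelets, fell beside Slamf1. All 10 of 10 megakaryocyte genes tested were lower by edgeR, by a median of -1.46 on the log2 scale. Their summed level was 1076 to 1150 CPM in non-radiated and 366 to 438 CPM in radiated libraries. Itga2b, the alpha chain of the fibrinogen receptor of platelets, fell from 229 ± 9.52 to 86.2 ± 4.77 CPM (log2 fold change -1.41). There were 8.15 to 9.64 counts of Slamf1 for every 100 of Itga2b in non-radiated and 9.50 to 11.1 in radiated libraries, and these ranges overlap. How much of the fall of Slamf1 lies in megakaryocytes was not tested. A further limit is that 145 other genes hold a stretch of at least 100 bases at 95% identity or more to a Slamf1 transcript, so reads in that stretch may not be placed uniquely.

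Kit encodes the receptor tyrosine kinase for stem cell factor, carried by stem cells, most early progenitors and mast cells, and lies on chromosome 5 from 75574916 to 75656722 (ENSMUSG00000005672). Kit stood at 75.5, 82.6 and 71.5 CPM in non-radiated and at 58.1, 57.1 and 58.1 CPM in radiated libraries. The radiated libraries were within about 1 CPM of each other and all lay below the lowest non-radiated one. The means were 76.6 ± 5.60 and 57.8 ± 0.608 CPM, and the log2 fold change was -0.40 (SE 0.06, adjusted p = 0.00454 by edgeR).

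Flt3 encodes a related kinase, the receptor for FLT3 ligand, which marks multipotent and lymphoid-primed progenitors and is kept by dendritic cells. It lies on chromosome 5 from 147330741 to 147400489 (ENSMUSG00000042817). Its level was 15.3, 16.5 and 15.9 CPM in non-radiated and 10.1, 10.7 and 9.70 CPM in radiated libraries. No radiated library came within 4 CPM of a non-radiated one. The means were 15.9 ± 0.579 and 10.2 ± 0.489 CPM, and the log2 fold change was -0.65 (SE 0.08, adjusted p = 0.00200 by edgeR). Flt3 was also lower relative to Kit, at 16.7 to 18.7 counts per 100 of Kit in radiated against 19.96 to 22.2 in non-radiated libraries.

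Of the other 3 receptors of the same kinase class tested, 1 passed the test. Pdgfra, a receptor of stromal cells that lies beside Kit on chromosome 5, fell from 56.1 ± 6.60 to 36.3 ± 5.09 CPM (log2 fold change -0.63, adjusted p = 0.0112 by edgeR). Csf1r, the receptor of macrophages, differed by 0.30 on the log2 scale (adjusted p = 0.0855 by edgeR), and Pdgfrb, a receptor of pericytes, by -0.03. The groups did not overlap for Csf1r, which was called as higher in 4 of the 16 alternatives. The ligands of Kit and Flt3 did not pass. Kitl had 77.3 ± 5.38 CPM in non-radiated and 69.8 ± 1.46 CPM in radiated femurs (log2 fold change -0.15, adjusted p = 0.202 by edgeR), and Flt3l had 13.3 ± 0.934 and 13.9 ± 0.130 CPM (log2 fold change 0.06, adjusted p = 0.764 by edgeR). There were 91.0 to 108 counts of Kit per 100 of Kitl in non-radiated and 80.0 to 85.0 in radiated libraries. There were 109 to 134 counts of Flt3 per 100 of Flt3l in non-radiated and 70.3 to 77.3 in radiated libraries, so each receptor was lower relative to its ligand.

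Mast cells carry Kit, and basophils arise from Kit-positive progenitors. Most genes of a list that pools these cell types were also lower. Of 8 tested, 6 fell and 1 rose, and the list's median log2 fold change was -0.57. Tpsb2, a mast cell tryptase and the 1 that rose, had 1 to 3 counts in non-radiated and 13 to 17 in radiated libraries, and its call was lost when library 1 or 3 of either group was left out, by DESeq2 and with the muscle covariate. Cma1, a mast cell protease, was not called. With the replicate number as a block its log2 fold change was 1.33 (adjusted p = 0.150 by edgeR). The list's summed level was 198 to 214 CPM in non-radiated and 138 to 159 CPM in radiated libraries. Prss34, a basophil protease, fell by 0.60 on the log2 scale (adjusted p = 0.00203 by edgeR), and Ms4a2, a chain of the IgE receptor, by 0.59 (adjusted p = 0.0123 by edgeR). That count rests on single libraries, since only 1 was called as lower when radiated library 1 was left out, and 3 when non-radiated library 2 was. Kit counts per 100 of Ms4a2 overlapped between the groups, at 528 to 584 in non-radiated and 579 to 688 in radiated libraries. Kit was higher relative to Gata2, a transcription factor of stem cells and mast cells, at 540 to 625 counts per 100 against 455 to 536. The part of mast cells in the lower Kit level was not tested.

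Some dendritic cell genes were lower beside Flt3. Of 9 tested, 3 fell and 1 rose, and the list's median log2 fold change was -0.20. The summed level was 125 to 132 CPM in non-radiated and 99.7 to 109 CPM in radiated libraries. Clec9a, a receptor of type 1 conventional dendritic cells, fell by 0.97 on the log2 scale (adjusted p = 0.000307 by edgeR), and Siglech, a lectin of plasmacytoid dendritic cells, by 0.87 (adjusted p = 0.000477 by edgeR). Xcr1, a chemokine receptor of type 1 conventional dendritic cells, was called as higher by 1.46 (adjusted p = 0.0328 by edgeR). That call was lost without any 1 of the 6 libraries and with the replicate number as a block (adjusted p = 0.0501 by edgeR). It was also lost by DESeq2 and with the muscle covariate. Flt3 was higher in the radiated libraries relative to Siglech, at 71.9 to 85.3 against 64.9 to 70.9 counts per 100, and relative to Clec9a, at 115 to 132 against 96.3 to 103. The part of dendritic cells in the lower Flt3 level was not tested.

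**Figure D2:**
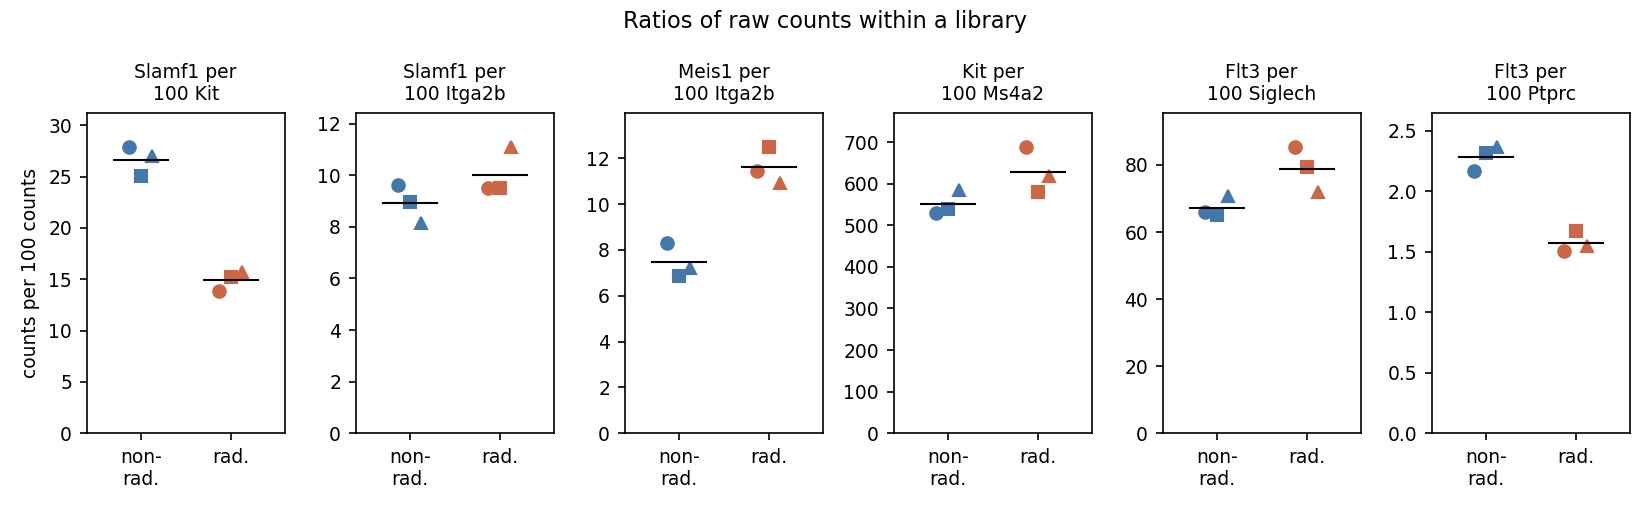
Counts of a stem and progenitor gene per 100 counts of a second gene in the same library, a ratio that no scaling of libraries can change. Points are libraries, coloured by group (rad., radiated), lines are group means, and axes start at 0. Slamf1 per Itga2b and Kit per Ms4a2 overlap between the groups, whereas Slamf1 per Kit is lower and Flt3 per Siglech higher in all 3 radiated libraries.

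Cd34 encodes a sialomucin of progenitors and endothelium that mouse stem cells at rest carry little of, and lies on chromosome 1 from 194938819 to 194961279 (ENSMUSG00000016494). Cd34 stood at 26.2, 24.6 and 26.4 CPM in non-radiated and at 19.97, 23.2 and 16.3 CPM in radiated libraries. All radiated libraries lay below the non-radiated ones, but they spread over 16.3 to 23.2 CPM. With means of 25.8 ± 0.980 and 19.8 ± 3.44 CPM, the log2 fold change was -0.38 and did not pass the test (SE 0.12, adjusted p = 0.0897 by edgeR). It passed without radiated library 2, the one richest in muscle RNA, with -0.51 (adjusted p = 0.0234 by edgeR), and with a muscle covariate, with -0.60 (adjusted p = 0.0107 by edgeR).

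Endothelium, which also makes Cd34, showed few called changes in its other genes under any setting. Of 10 endothelial genes tested, 0 passed by edgeR (4 at an unadjusted p under 0.05), 0 by limma-voom and 1 by DESeq2, as higher, and 1 passed as lower without radiated library 2. With the replicate number as a block, Cdh5, the cadherin of endothelial junctions, was called as higher by 0.30 on the log2 scale (adjusted p = 0.0438 by edgeR), and 1 gene was called as higher with no filter on low counts and 2 on library totals without AY036118 and Gm26917. Their median log2 fold change was 0.07, and their summed level was 455 to 492 CPM in non-radiated and 472 to 522 CPM in radiated libraries. Pecam1, an adhesion molecule of endothelium, megakaryocytes and leukocytes, had 78.2 ± 2.35 and 89.8 ± 3.96 CPM (log2 fold change 0.20, adjusted p = 0.0581 by edgeR). Cd34 stood at 17.4 to 27.0 counts per 100 of Pecam1 in radiated against 32.3 to 34.0 in non-radiated libraries.

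Procr encodes the endothelial protein C receptor, a surface marker of stem cells and vessels, and lies on chromosome 2 from 155751117 to 155755471 (ENSMUSG00000027611). Its levels were low, at 0.603, 0.838 and 0.684 CPM in non-radiated and at 1.27, 1.72 and 0.941 CPM in radiated libraries, from 21 to 92 counts. It was the only one of the 10 genes with all radiated libraries above all non-radiated ones. The log2 fold change was 0.91 and did not pass the test (SE 0.28, adjusted p = 0.0835 by edgeR), except without radiated library 3, with 1.10 (adjusted p = 0.0400 by edgeR), and with library totals alone as the scale, with 1.11 (adjusted p = 0.0361 by edgeR). Among the radiated libraries Procr and the summed muscle level had the same order, highest in library 2 and lowest in library 3. Among the non-radiated ones both were highest in library 2, but muscle was lowest in library 3 and Procr in library 1. With a muscle covariate the log2 fold change of Procr was 0.44 (adjusted p = 0.464 by edgeR). The muscle genes themselves had a median log2 fold change of 2.25, so that covariate is not independent of the group. The part of muscle in the Procr level was not tested.

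Ly6a encodes Sca-1, a lipid-anchored surface protein that defines the mouse stem cell gate together with Kit and is also made by endothelium and stroma. It lies on chromosome 15 from 74994877 to 74998031 (ENSMUSG00000075602). Ly6a stood at 7.82, 5.87 and 10.2 CPM in non-radiated and at 14.1, 10.8 and 9.01 CPM in radiated libraries. The groups overlap, and the log2 fold change of 0.50 did not pass the test (SE 0.21, adjusted p = 0.216 by edgeR). Relative to Kit, its partner in the gate, Ly6a was higher in the radiated libraries, at 15.5 to 24.3 counts per 100 against 7.10 to 14.2. Among 6 other Ly6 genes tested, 0 passed by edgeR (4 at an unadjusted p under 0.05) and by limma-voom, while DESeq2 called 1 higher and 2 lower, and 1 was called higher without non-radiated library 3. With the replicate number as a block Ly6c2, a gene of monocytes and T cells, was called as lower by edgeR (-0.27 on the log2 scale, adjusted p = 0.0459), while 2 were called as lower with the muscle covariate, and 1 as higher and 2 as lower with no filter on low counts. A Ly6a transcript shares 263 bases at 96.6% identity with one of its neighbour Ly6c1, so its counts are uncertain.

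Meis1 encodes a homeodomain factor of the TALE class that binds DNA with Hox proteins and keeps stem cells at rest. It lies on chromosome 11 from 18879817 to 19018985 (ENSMUSG00000020160). Meis1 stood at 18.2, 15.9 and 17.1 CPM in non-radiated and at 9.72, 11.4 and 8.99 CPM in radiated libraries. Again the groups were apart, with 4 CPM or more between them. The means were 17.0 ± 1.15 and 10.04 ± 1.25 CPM, and the log2 fold change was -0.76 (SE 0.11, adjusted p = 0.00316 by edgeR). An annotated transcript on the same strand, RP23-377H12.4, shares 1029 exon bases with Meis1 and had 51 to 94 counts. Its own log2 fold change was -0.77 (SE 0.18, adjusted p = 0.0333 by edgeR), so reads there cannot be assigned to either with certainty.

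Hoxa9, a homeodomain partner of Meis1 in progenitors and leukaemia, lies on chromosome 6 from 52223100 to 52231089 (ENSMUSG00000038227). Hoxa9 stood at 4.80, 4.03 and 4.93 CPM in non-radiated and at 3.99, 4.29 and 4.12 CPM in radiated libraries. The groups overlap, and the log2 fold change of -0.15 did not pass the test (SE 0.13, adjusted p = 0.556 by edgeR). Meis1 was lower relative to it, with 218 to 266 counts per 100 of Hoxa9 in radiated against 347 to 393 in non-radiated libraries. Relative to Itga2b, Meis1 was higher, at 10.9 to 12.5 counts per 100 in radiated against 6.88 to 8.32 in non-radiated libraries. Of 17 other Hox and TALE genes tested, 1 fell and 0 rose. The median over these 17 was -0.02 (0.17 with library totals alone), and without non-radiated library 1 a further gene was called, as higher.

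Hlf, a basic leucine zipper factor whose RNA is concentrated in stem cells, lies on chromosome 11 from 90336536 to 90390895 (ENSMUSG00000003949). Hlf stood at 8.12, 8.06 and 8.45 CPM in non-radiated and at 6.29, 7.17 and 5.92 CPM in radiated libraries. All radiated libraries lay below the non-radiated ones, yet the log2 fold change of -0.35 did not pass the test (SE 0.11, adjusted p = 0.104 by edgeR) or any of the 16 alternatives. Hlf belongs to the PAR factors, whose transcription follows the clock. Of 15 other PAR and clock genes tested, 2 rose and 0 fell, with 1 called as higher when library 1 or 2 of either group was left out and 3 without non-radiated library 3. Arntl, which encodes the clock activator BMAL1, rose from 12.3 ± 0.529 to 20.5 ± 1.50 CPM (log2 fold change 0.73, adjusted p = 0.00113 by edgeR). Tef, a PAR factor like Hlf, differed by 0.20 on the log2 scale (adjusted p = 0.219 by edgeR).

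Mecom, which encodes the zinc finger factor EVI1 needed for stem cell upkeep, lies on chromosome 3 from 29951296 to 30548008 (ENSMUSG00000027684). Mecom stood at 2.93, 2.36 and 2.76 CPM in non-radiated and at 1.85, 2.68 and 2.55 CPM in radiated libraries. These groups overlap, and the log2 difference was -0.18 (SE 0.18, adjusted p = 0.634 by edgeR).

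**Figure D3:**
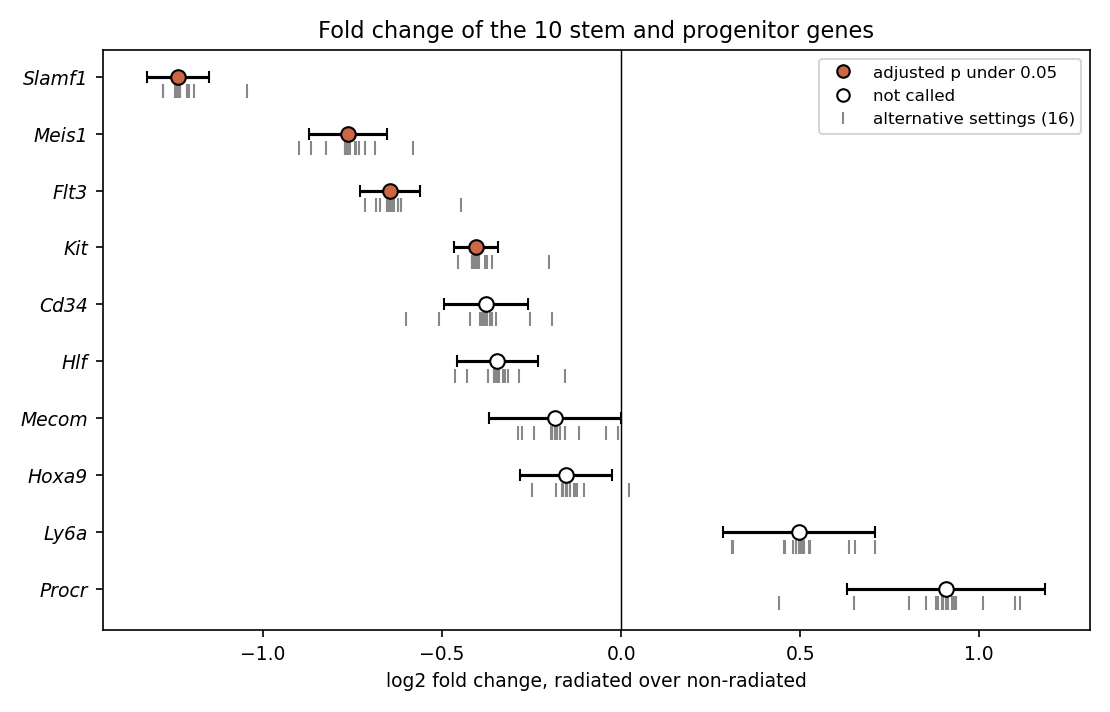
Log2 fold change of each of the 10 genes, radiated over non-radiated, with bars of 1 SE, and grey ticks for the 16 alternative settings. Slamf1, Meis1, Flt3 and Kit, with filled points, passed the test. The ticks of 9 genes stay on 1 side of 0, while those of Hoxa9 cross it.

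Per kilobase of gene length, the order of levels in non-radiated femurs was Kit at 13.1 CPM per kb, then Ly6a at 6.60, Cd34 at 3.53, Slamf1 at 3.31, Flt3 at 2.05, Meis1 at 1.62, Hlf at 1.23, Hoxa9 at 0.822, Procr at 0.349 and Mecom at 0.216. Only Cd34 and Slamf1 overlapped among neighbours of this order. In radiated femurs Kit at 9.91 and Ly6a at 9.39 CPM per kb overlapped, as did Slamf1 at 1.40 with Flt3 at 1.31, Hlf at 0.967 with Meis1 at 0.954, and Hoxa9 at 0.741 with Procr at 0.645. Slamf1 and Cd34, which overlapped in non-radiated femurs, were apart in radiated ones, where Cd34 had 2.72 CPM per kb. The lengths of Flt3 and Kit in the deposited table differ from those of GENCODE M21, so their place in the order depends on the annotation.

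Other genes enriched in stem cells moved in both directions. Of 14 tested, 5 fell and 1 rose, with a median of -0.13 that became 0.05 with library totals alone as the scale. Vwf, a clotting protein of megakaryocytes, endothelium and platelet-primed stem cells, fell by 1.35 on the log2 scale (adjusted p = 1.43e-05 by edgeR), and Mmrn1, a platelet and endothelial protein, by 1.40 (adjusted p = 0.000104 by edgeR). Tek, the angiopoietin receptor of stem cells and endothelium, fell by 0.60 (adjusted p = 0.00325 by edgeR). Angpt1, its ligand, fell from 42.2 ± 3.73 to 20.9 ± 1.22 CPM (log2 fold change -1.01, adjusted p = 0.000144 by edgeR). Ndn, a growth suppressor, was higher by 1.16 from 9 to 50 counts (adjusted p = 0.0290 by edgeR). That call was lost by DESeq2, and when library 2 or 3 of the non-radiated or library 1 or 3 of the radiated group was left out.

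Among transcription factors of stem cells, 2 of 15 tested fell and 0 rose, with a median of -0.10 that became 0.10 with library totals alone. Gata2 fell from 15.3 ± 1.03 to 10.1 ± 0.687 CPM (log2 fold change -0.60, adjusted p = 0.00542 by edgeR). Etv6, an ETS repressor, fell by 0.21 on the log2 scale (adjusted p = 0.0317 by edgeR), which held only without non-radiated library 3 among the 6 fits that leave out a library, and which was lost with the replicate number as a block (adjusted p = 0.0655 by edgeR). The count of this list was 3 in that fit and 1 in the other 5. Of 12 niche ligands and receptors tested, 4 fell and 0 rose, among them Tek, Angpt1 and Csf3r, the receptor of granulocyte colony-stimulating factor (log2 fold change -0.41, adjusted p = 0.0336 by edgeR). The Csf3r call held in 1 of the 6 fits that leave out a library, the one without radiated library 2. Cxcl12, the chemokine that holds stem cells in the marrow, differed by -0.28 on the log2 scale (adjusted p = 0.0515 by edgeR).

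Genes of the stages after the stem cell moved in different directions. Of 8 lymphoid progenitor genes 4 rose and 0 fell, and the list's median log2 fold change was 0.49. Dntt, the template-free DNA polymerase of early lymphocytes, rose from 27.2 ± 3.35 to 41.2 ± 0.316 CPM (log2 fold change 0.60, adjusted p = 0.00381 by edgeR), and Il7r, the interleukin-7 receptor, by 0.74 (adjusted p = 0.00551 by edgeR). All 9 of 9 B cell genes rose, with a median of 0.76 and a summed level of 486 to 530 CPM in non-radiated and 781 to 943 CPM in radiated libraries. Of 10 myeloid progenitor genes 2 fell and 0 rose, Ctsg, a granule protease, by 0.44 on the log2 scale (adjusted p = 0.00380 by edgeR), and Ms4a3, a gene of granulocyte and monocyte progenitors, by 0.40 (adjusted p = 0.00890 by edgeR). With the replicate number as a block, 4 of these 10 were called as lower, and 5 without non-radiated library 1. Of 8 megakaryocyte and erythroid progenitor genes 1 fell and 0 rose, and 3 were called as lower with the block and 2 without non-radiated library 1 or radiated library 2.

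Genes shared by all white blood cells showed no called change. Of 6 tested, 0 passed by edgeR (1 at an unadjusted p under 0.05), by DESeq2 or by limma-voom, and the list's median log2 fold change was -0.05 (0.15 with library totals alone). Their summed level was 1757 to 1843 CPM in non-radiated and 1672 to 1873 CPM in radiated libraries. Against Ptprc, the CD45 antigen of white cells, the 4 called genes were lower in every radiated library. Slamf1 had 1.20 to 1.45 counts per 100 of Ptprc in radiated and 2.87 to 2.98 in non-radiated libraries, Kit 8.65 to 9.24 and 10.6 to 11.6, Flt3 1.50 to 1.67 and 2.17 to 2.36, and Meis1 1.43 to 1.79 and 2.23 to 2.57. Fat cell genes moved the other way, with all 8 of 8 higher and a summed level of 189 to 212 CPM in non-radiated and 392 to 511 CPM in radiated libraries. Of 10 muscle genes 0 passed by edgeR (10 at an unadjusted p under 0.05), DESeq2 or limma-voom, and the list's median log2 fold change was 2.25. Of the same genes, 8 were called as higher without radiated library 3 or with the block, and 1 without radiated library 1. All 10 were called as higher by edgeR with library totals alone as the scale, and also with no filter on low counts. With white blood cell genes as the library size, 1 was called as higher.

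**Figure D4:**
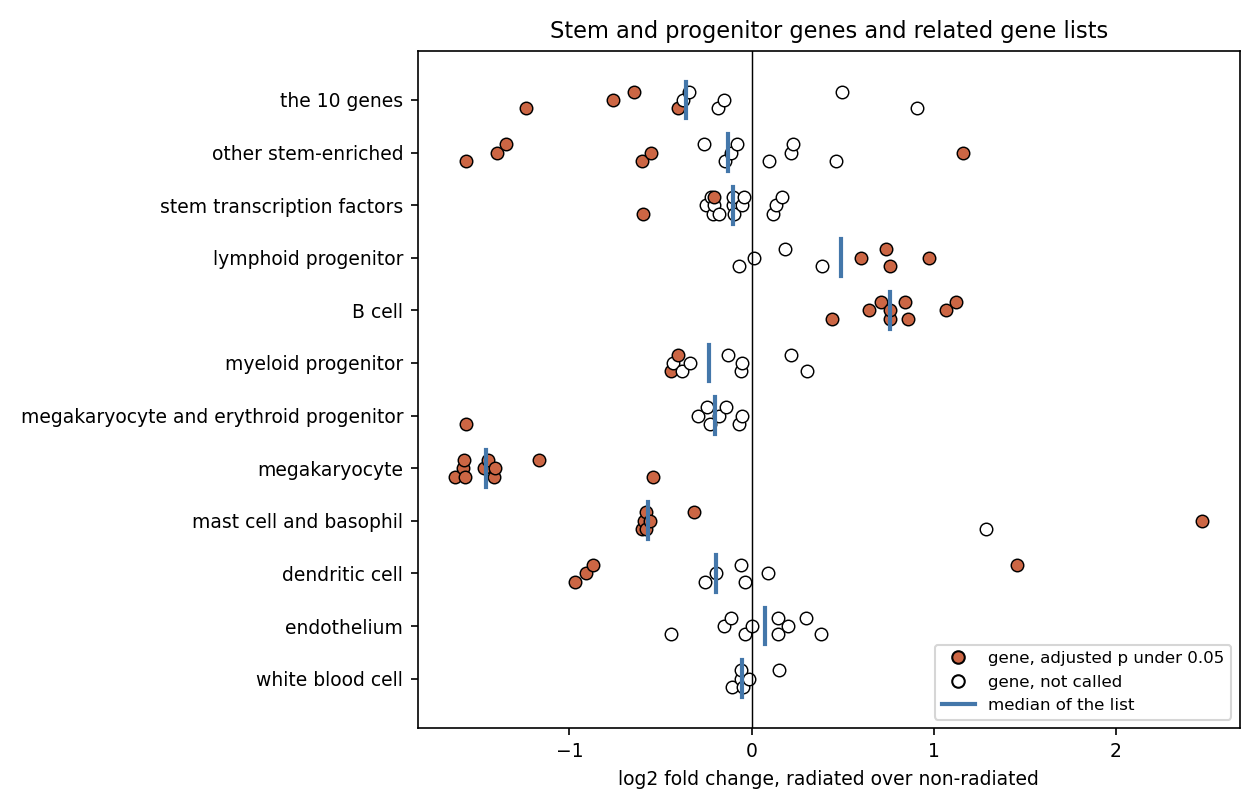
Log2 fold change of every tested gene in the lists of related genes and of cell types that also make some of the 10 genes, radiated over non-radiated. Points are genes, filled where the adjusted p was under 0.05, and lines are list medians. The megakaryocyte genes lie lowest, with a median of -1.46, and the B cell genes lie above 0.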

How the data were processed

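Each of the 6 femur libraries was counted as 1 replicate, grouped by its label. The authors deposited counts of reads per gene, as whole numbers, for 43346 genes, per the file headers. The submitters' processing notes name bcl2fastq, STAR 2.5.2b, Subread, featureCounts and mm10, while the annotation release, the use of strand and any filter are not given in the sources used here. RPKM values (scaled by length and library size), deposited by the authors per the file headers, were not tested. From the counts, TMM-scaled CPM and fold changes were computed with edgeR 4.0.16 (R 4.3.3). The filterByExpr step, with a minimum count of 10 and a minimum total of 15, kept 18757 genes for glmQLFit and glmQLFTest on the group alone. Benjamini-Hochberg adjustment ran over all of them, with a threshold of 0.05, and the biological coefficient of variation was 12.9%. Fold changes rest on TMM and so are relative to the bulk of genes.

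The script was tested on simulated data. Replicates of a group differed by far more than counting noise (chi-square per degree of freedom 17.6 to 599). AY036118 was not left out of these values. The highest, 512 and 599, were those of the pairs with non-radiated library 2, where that transcript took 32.9% of the counts. Libraries with the same number deviated together. Correlations across genes were 0.166, 0.277 and 0.187 for the same number, against -0.170 to -0.0082 for different numbers. The group mean was subtracted from each library first. Positive values for the same number therefore push the others down, and the 2 ranges are not independent. The labels do not say what a number stands for. The main fit therefore did not pair libraries, and the replicate number was used as a block in an alternative only. P-values not said to come from that block ignore any such pairing. Alternatives were the replicate block, other scalings, filters and tools (DESeq2 1.42.0, limma 3.58.1), a muscle covariate and leaving out each library. The 10 genes and the lists were chosen with earlier results of these data known. Named genes are the 10 genes, up to 4 per related list by smallest p with called genes first, and genes on which a result turns. A few genes that this rule names are left out of the text. Transcripts were compared with BLAST 2.17.0, and promoters came from RefSeq (GRCm38.p6).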

Additional observations from a re-analysis of the deposited data

How the results depend on the processing

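Of the 10 genes, 4 were called, and 4 or 5 in every alternative but one. With library totals alone as the scale 2 were called, Slamf1 and Procr, and the log2 fold change of Hoxa9 changed sign to 0.021. Cd34 was added with no filter on low counts (edgeR adjusted p = 0.0290), with DESeq2's Wald test (adjusted p = 0.0145), with the muscle covariate and without radiated library 2, and Procr was added without radiated library 3. The other 9 genes kept their direction in all 16 alternatives. With the replicate number as a block, 4 of the 10 and 1670 of all genes were called, against 1463 without it, and the block changed no call among the 10. Leaving out 1 library gave 764 to 1376 called genes, the lowest without radiated library 1, with 819 and 905 when non-radiated library 2 or 1 was the one left out. Library totals alone gave 1000, library totals without AY036118 and Gm26917 gave 1496, and no filter gave 2073. With the summed counts of white blood cell genes as the library size, an alternative chosen after seeing the data, 4 of the 10 and 1352 genes were called. The cause of these differences was not tested. Low counts limit Procr, with 21 to 92 counts a library.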
